A study of Rattus norvegicus with 20 samples.

Results

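Sod1, Sod2, Cat, Hmox1 and Nfe2l2, genes of some antioxidant enzymes and of the transcription factor Nrf2, were followed in the skeletal muscle and white fat of the same rats. These 5 genes were chosen by Ensembl identifier among the 32883 genes of the deposited table: ENSRNOG00000002115 for Sod1, ENSRNOG00000019048 for Sod2, ENSRNOG00000008364 for Cat, ENSRNOG00000014117 for Hmox1 and ENSRNOG00000001548 for Nfe2l2. The rule that chose them used identifiers and no measured value, but earlier results of these data were known at the time. All 5 passed the filter on low counts that left 13806 genes to test. The rats, a Fischer 344 x Brown Norway cross obtained at 8 months of age from a National Institute on Aging colony, were untreated as far as the labels say and spent 2 weeks on a reversed light cycle before the tissues were taken. Messenger RNA was sequenced from the gastrocnemius, a mixed muscle of the calf, in 10 libraries, and from abdominal white adipose tissue in 10 libraries. Libraries with the same number came from the same animal. The series lists 5 male and 5 female rats, but the labels of all 20 samples read male, so sexes were not compared.

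Cells remove superoxide, a by-product of respiration, in consecutive steps. Superoxide dismutases turn it into hydrogen peroxide: Sod1, the copper-zinc enzyme, works mainly in the cytosol, and Sod2, the manganese enzyme, in the mitochondrial matrix. Catalase, encoded by Cat, breaks hydrogen peroxide down in peroxisomes. Hmox1, the inducible heme oxygenase, instead cleaves heme to biliverdin, carbon monoxide and iron. Nfe2l2 encodes Nrf2, which the adaptor Keap1 marks for degradation in unstressed cells. Nrf2 that escapes enters the nucleus, pairs with small Maf proteins and binds antioxidant response elements, with Hmox1 among its best known targets. Because Nrf2 is controlled largely through its protein, the level of its transcript is not a measure of its activity.

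Total counts per library ran from 8446548 to 25904168. Levels are given in CPM, read counts scaled to a common library size, after scaling by trimmed-mean (TMM) factors, which align the bulk of the genes between the tissues, and, where the difference matters, in CPM of the plain library total. Scaling by totals moved the muscle over adipose log2 fold changes of all genes by a median of -1.30, so a gene near that shift has no direction independent of the scaling. Muscle library 2 stood apart, with 291 genes above and 379 genes below each other muscle library by 2-fold or more. Adipose library 4 stood apart likewise, with 484 genes above and 100 below each other adipose library. In the other libraries these numbers were at most 104 above and 322 below, both in adipose library 3. In adipose libraries 1, 3 and 5, transcripts of 170 genes nearly restricted to muscle were raised, to 1.41%, 1.57% and 0.454% (medians over these genes) of what muscle held, next to 0.149% or less in the other adipose libraries. The labelled tissues could not be checked against named markers, because no identifier of the table matched a gene name in the reference tables used here.

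The antioxidant genes did not move together between muscle and fat. Sod2 was 8.68-fold higher in muscle, whereas Cat was 1.76-fold and Hmox1 1.84-fold higher in adipose tissue. Sod1 and Nfe2l2 did not pass the test with TMM scaling, and both were higher in adipose tissue when scaled by library totals. Thus 3 of the 5 genes were called with TMM factors, 1 in favour of muscle and 2 in favour of adipose tissue (quasi-likelihood test of edgeR, with a threshold of 0.05 on the p adjusted over all 13806 genes). Of all genes tested, 79.8% were called, 37.6% as higher in muscle and 42.2% as higher in adipose tissue, so being called is no distinction between these tissues. With library totals 5 of 5 genes were called, 4 of them higher in adipose tissue, where 86.4% of all genes were called and 74.2% were higher in adipose tissue. The median log2 fold change of the 5 genes was 0.02, next to -0.09 over all genes tested. In bulk tissue, fewer cells of a type and less RNA per cell cannot be told apart.

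**Figure D1:**
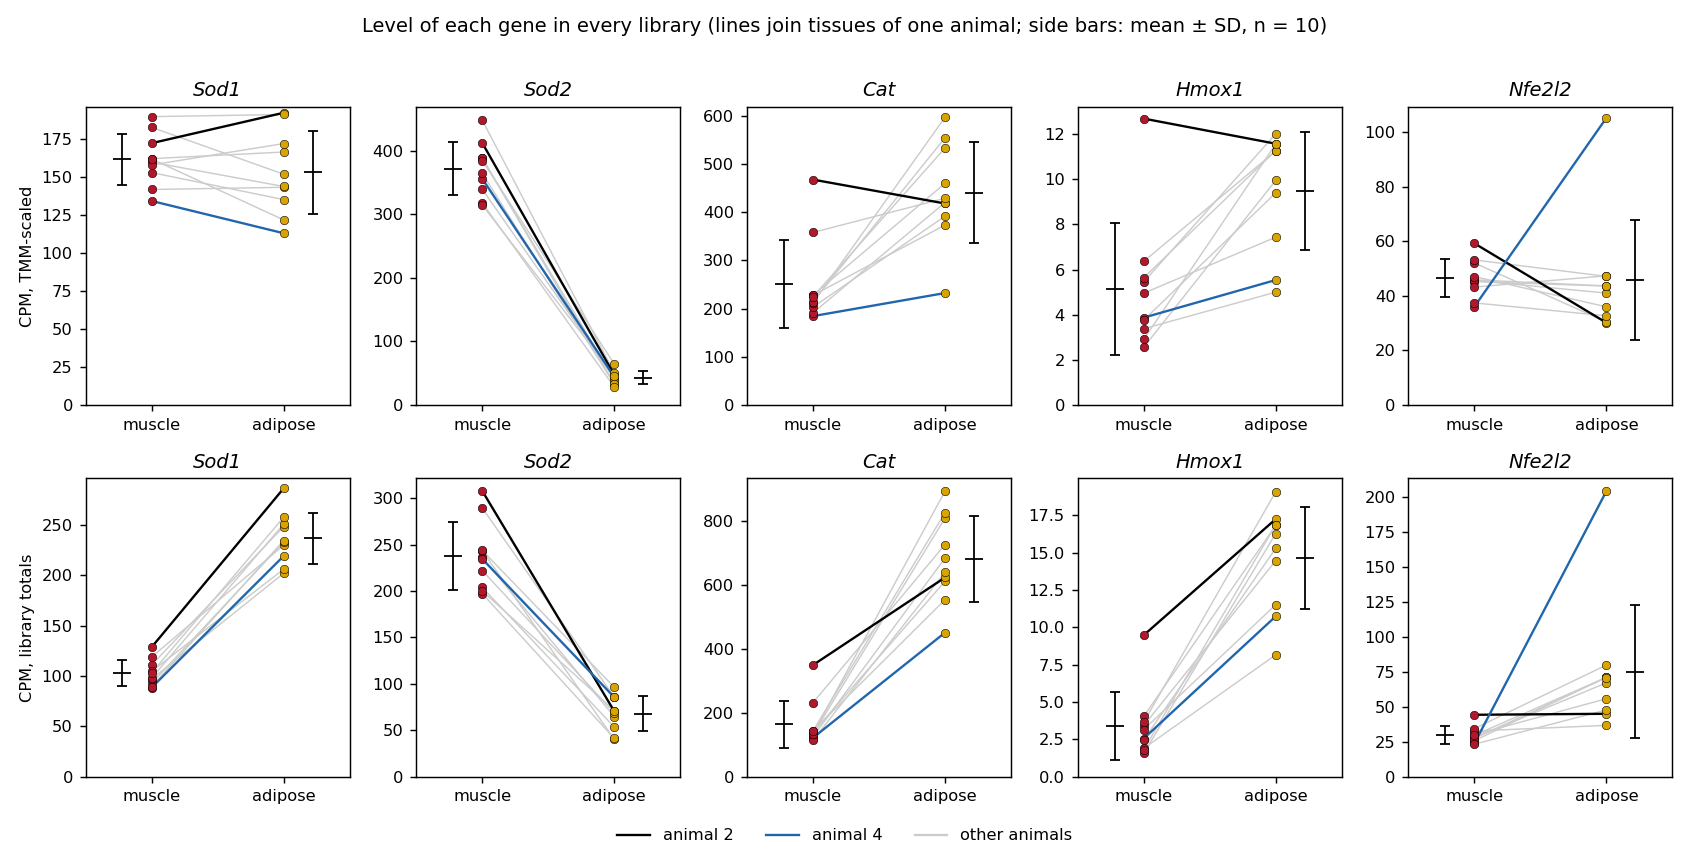
Level of each gene in all 20 libraries, in CPM scaled by TMM factors (upper row) or by library totals (lower row), on linear axes that start at 0. Points are libraries, lines join the tissues of an animal, and side bars give the mean ± SD of 10 libraries. Sod2 separated the tissues in both rows, while Sod1 overlapped in the upper row only.

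Sod2 showed the clearest difference. Its level was 314.8 to 448 CPM in the muscle libraries (median 375) and 28.2 to 64.4 CPM in the adipose libraries (median 43.2, TMM-scaled). Every muscle library lay above every adipose library, also with library totals. With TMM factors 45.5% of the genes tested had no overlap, 21% with muscle higher; with library totals these shares were 56.3% and 6.06%. The means were 372 ± 41.8 CPM in muscle and 42.8 ± 10.4 CPM in adipose tissue (SD, n = 10). On the log2 scale muscle exceeded adipose tissue by 3.12 (SE 0.13; adjusted p = 3.97e-15, edgeR), with a 95% interval from 7.15-fold to 10.5-fold. With library totals the fold was 3.50, and Sod2 was higher in muscle in 10 of 10 animals under either scaling. Ranked among the log2 fold changes of all genes, from adipose to muscle, Sod2 stood at the 94.5th percentile with TMM factors and at the 94.6th with library totals. Adipose libraries 1, 3 and 5, those with raised muscle transcripts, had 39.4, 33.3 and 42.3 CPM of Sod2, next to the adipose median of 43.2. Their muscle transcripts stood at 0.454% to 1.57% of the muscle level, as medians over the 170 genes nearly restricted to muscle. The SD of Sod2 over the adipose libraries was 10.4 CPM. The part of muscle transcripts in adipose Sod2 was not tested.

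Sod1 took a different course from its mitochondrial counterpart. Muscle held 134 to 190 CPM (median 161) and adipose tissue 113 to 192 CPM (median 148, TMM-scaled). The tissues overlapped almost completely, and Sod1 was higher in muscle in 5 of 10 animals. The log2 fold change, 0.08 with an SE of 0.10 (adjusted p = 0.483, edgeR), had a 95% interval from -0.13 to 0.29, that is from 0.911-fold to 1.22-fold. Scaled by library totals, the same counts gave 88.4 to 129 CPM in muscle and 202 to 286 CPM in adipose tissue, without overlap, as in 50.2% of the genes tested in that direction. On that scale the log2 fold change was -1.20 (edgeR adjusted p = 2.23e-11), close to the shift of all genes. Relative to the other genes Sod1 lay in the middle under both scalings, at the 54.4th and the 54.9th percentile of the log2 fold changes.

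Catalase transcripts were higher in fat. Muscle libraries held 184 to 467 CPM of Cat (median 219) and adipose libraries 232 to 597 CPM (median 424, TMM-scaled). The means were 251 ± 90.3 and 441 ± 104 CPM (SD, n = 10), which gave a log2 difference of -0.81 with an SE of 0.18 (adjusted p = 3.08e-04, edgeR). In 9 of 10 animals the adipose library had the higher level with TMM factors, and in 10 of 10 with library totals, where the log2 fold change was -2.07. Library totals moved the log2 fold changes of all genes by a median of -1.30. Ranked among them, from adipose to muscle, Cat stood at the 33.9th percentile with TMM factors and at the 34.8th with library totals. The overlap with TMM factors came from few libraries. Muscle library 2 held 467 CPM and muscle library 8 held 358 CPM, while the other 8 muscle libraries lay between 184 and 228 CPM. Adipose library 4 held 232 CPM, the lowest of its tissue, and the other 9 adipose libraries lay between 373 and 597 CPM. In animal 2 the muscle level was above the adipose level of 418 CPM.

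Hmox1 had by far the fewest reads, with 27 to 155.5 counts per muscle library and 110 to 396 per adipose library. Its level was 2.55 to 12.7 CPM in muscle (median 4.41) and 5.00 to 12.0 CPM in adipose tissue (median 10.6, TMM-scaled). The log2 fold change was -0.88 with an SE of 0.25 (adjusted p = 0.00315, edgeR), and 9 of 10 animals had more Hmox1 in adipose tissue. With library totals it was -2.12, a 4.33-fold excess in adipose tissue, seen in 10 of 10 animals. That scaling moved all genes by a median of -1.30, and 74.2% of them were then called as higher in adipose tissue. Ranked among the log2 fold changes of all genes, from adipose to muscle, Hmox1 stood at the 32.7th percentile with TMM factors. With library totals it stood at the 34.0th. The exception with TMM factors was again animal 2, whose muscle library held 12.7 CPM, the highest value of either tissue, next to 6.36 CPM in the next muscle library. Without muscle library 2 the log2 fold change with TMM factors was -1.13 (edgeR adjusted p = 3.50e-05). The genes nearly restricted to adipose tissue stood at 0.533% of their adipose level in muscle library 2, next to 0.208% to 0.393% in the other muscle libraries. The part of adipose transcripts in the high Hmox1 and Cat of that library was not tested.

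Nfe2l2, the transcript of Nrf2 itself, stood at 36.0 to 59.2 CPM in muscle (median 45.7) and 30.1 to 105 CPM in adipose tissue (median 42.3, TMM-scaled). The means, 46.5 ± 7.02 and 45.7 ± 21.9 CPM (SD, n = 10), differed far less than the libraries within adipose tissue. The log2 fold change was 0.02 with an SE of 0.18 (adjusted p = 0.909, edgeR), with a 95% interval from 0.779-fold to 1.33-fold, and it was -1.34 (edgeR adjusted p = 2.35e-05) with library totals. Nfe2l2 was higher in muscle in 8 of 10 animals with TMM factors and in 0 of 10 with library totals. The latter scaling moved the log2 fold changes of all genes by a median of -1.30. Adipose library 4 held 105 CPM, and the other 9 adipose libraries lay between 30.1 and 47.3 CPM. Without that library the log2 fold change with TMM factors was 0.25 (95% interval 0.01 to 0.49, edgeR adjusted p = 0.0455), so this library decided whether Nfe2l2 was called as higher in muscle.

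**Figure D2:**
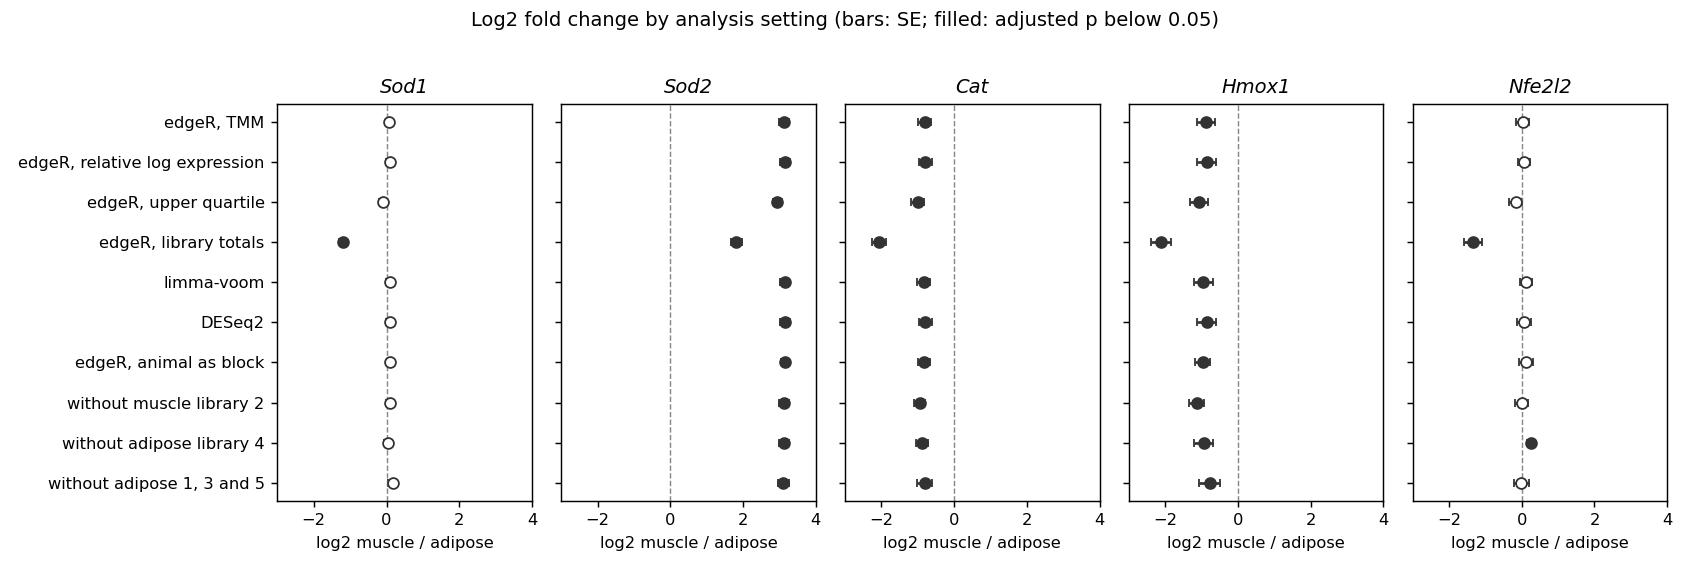
Log2 fold change of muscle over adipose for each gene (horizontal axis) under 10 analysis settings (vertical axis). Points are estimates, bars are SEs, and filled points have an adjusted p below 0.05. Sod2 lay to the right of 0 and Cat and Hmox1 to the left in each setting, while Sod1 and Nfe2l2 lay near 0 except with library totals.

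Ratios between genes within a library were compared next, because they do not depend on how libraries are scaled. The counts are not divided by gene length, so a ratio says nothing about which transcript was more abundant, but the length cancels when the same ratio is compared between tissues. For the 10 ratios, differences within animals were tested by flipping their signs in all ways (exact permutation test, two-sided). Over 10 animals the smallest p it can give is 0.00195, and p-values were adjusted over the 10 ratios.

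The balance of the dismutases differed between the tissues. The Sod2/Sod1 count ratio was 1.94 to 2.77 in muscle libraries (median 2.34) and 0.164 to 0.476 in adipose libraries (median 0.268). The tissues did not overlap, and within animals the ratio was 5.28-fold to 12.3-fold higher in muscle, in 10 of 10 animals. Of single genes 45.5% did not overlap with TMM factors, and the share over other gene pairs was not computed. Sod1 itself differed little with TMM factors (log2 fold change 0.08), so this ratio mostly repeats the difference of Sod2. The mean difference was 3.06 on the log2 scale (SD 0.39 over animals), or 8.31-fold, with an exact permutation p of 0.00195 and an adjusted p of 0.00488.

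The other ratios with Sod2 differed as well, by similar or larger folds. The Cat/Sod2 ratio was 15.8-fold, the Hmox1/Sod2 ratio 17.3-fold and the Nfe2l2/Sod2 ratio 8.20-fold lower in muscle than in adipose tissue, each in 10 of 10 animals and without overlap (exact permutation test, adjusted p = 0.00488 for each). These ratios share Sod2 and are therefore not independent of each other or of the difference of Sod2 itself. The share of other gene pairs without overlap was not computed. For Cat/Sod2 the libraries spanned 0.517 to 1.13 in muscle, against 5.27 to 19.7 in adipose tissue.

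Cat and Hmox1 were also higher in fat relative to Sod1. The Cat/Sod1 ratio had a median of 1.36 in muscle and 2.83 in adipose tissue, a mean difference of -0.93 on the log2 scale (SD 0.53), with the higher ratio in the adipose library of 9 of 10 animals (exact permutation test, adjusted p = 0.00651). The Hmox1/Sod1 ratio differed by -1.06 (SD 0.71), likewise in 9 of 10 animals (exact permutation test, adjusted p = 0.00651). Animal 2 was the exception in both. Without animals 1, 3 and 5 the differences were -0.88 and -0.85, and neither passed the test, with an adjusted p of 0.0521 for both (exact permutation test, 7 animals). With fewer animals the smallest p of this test is larger, and the ratios with Sod2 then had an adjusted p of 0.0391 (exact permutation test). The missed threshold therefore does not tell smaller differences from fewer animals.

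Relative to the transcript of Nrf2, its target Hmox1 and Cat were lower in muscle. The Nfe2l2/Hmox1 ratio had a median of 9.44 in muscle and 4.18 in adipose tissue, and was higher in muscle in 9 of 10 animals, by 1.08 on the log2 scale (SD 0.94, exact permutation test, adjusted p = 0.0167). The Nfe2l2/Cat ratio was higher in muscle in 9 of 10 animals, by 0.95 (SD 0.87, exact permutation test, adjusted p = 0.0171). The exception was animal 4 in both, whose adipose library had the high Nfe2l2. Without animals 1, 3 and 5 these differences were 0.77 and 0.80 and missed the threshold, with adjusted p values of 0.117 and 0.112 (exact permutation test, 7 animals). The smaller number of animals also raises the smallest p that this test can give.

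The other two ratios did not pass the test. Hmox1/Cat differed by -0.13 on the log2 scale (SD 0.62, lower in muscle in 7 of 10 animals, exact permutation test, adjusted p = 0.575). Its range was 0.0112 to 0.0303 in muscle and 0.0128 to 0.0277 in adipose tissue, and the 95% interval of the mean difference (t distribution) was -0.57 to 0.31 on the log2 scale. Nfe2l2/Sod1 differed by 0.02 (SD 0.79, higher in muscle in 5 of 10 animals, exact permutation test, adjusted p = 0.934). The 95% interval was -0.54 to 0.58, and single animals differed by up to 3.47-fold in this ratio.

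**Figure D3:**
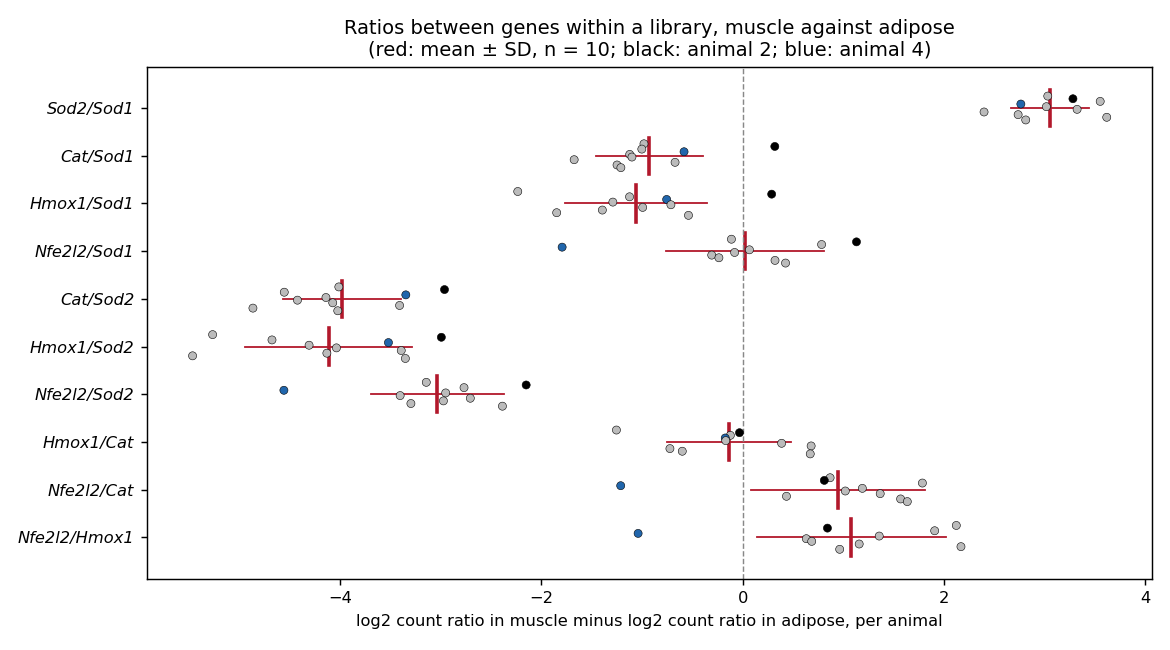
Difference between muscle and adipose tissue in each log2 count ratio, for the 10 animals (points), with the mean and SD in red. Black points are animal 2 and blue points animal 4. Ratios with Sod2 lay away from 0 in all animals, while animal 2 alone lay above 0 in Cat/Sod1 and Hmox1/Sod1 and animal 4 alone below 0 in Nfe2l2/Cat and Nfe2l2/Hmox1.

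Variation between animals was examined within each tissue. In muscle, Sod1 and Sod2 were steady, with SDs of 0.15 and 0.16 on the log2 CPM scale (TMM-scaled), at percentiles 7.03 and 8.71 of the SDs of all genes tested. Both have high counts, at median percentiles of 96.2 and 98.6 within the muscle libraries. Their ranks are set against genes with fewer counts and more counting error, and were not matched for count level. Nfe2l2 had an SD of 0.22, Cat of 0.43 and Hmox1 of 0.65, next to a median of 0.35 over all genes. Hmox1 stood at the 79.8th percentile, and its low counts add counting error to that spread. In adipose tissue the SDs were 0.26 for Sod1, 0.35 for Sod2, 0.38 for Cat, 0.46 for Hmox1 and 0.52 for Nfe2l2, next to a median of 0.41. Single libraries set part of this order. Without muscle library 2 the SD was 0.44 for Hmox1, still the widest of the 5 in muscle, and 0.28 for Cat. Without adipose library 4 the SD was 0.26 for Nfe2l2, 0.24 for Cat and 0.41 for Hmox1, which then had the widest spread of the 5 in adipose tissue.

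Whether the genes varied together over the animals was tested for 25 relations: 10 pairs of genes in each tissue and each gene across the tissues. With TMM factors 1 relation passed, that of Sod1 and Nfe2l2 in adipose tissue. Libraries with more Sod1 had less Nfe2l2, with r = -0.88 (permutation test, p = 1e-05, the smallest that 100000 resamples can give, adjusted p = 2.50e-04) and rho = -0.98 (permutation test, p = 3.00e-05, adjusted p = 7.50e-04). Without animals 2 and 4, farthest from the median of Sod1, r was -0.96. Scaled by library totals, however, r was -0.48 (permutation test, adjusted p = 0.30) and rho was -0.56 (adjusted p = 0.266). The TMM factors of the adipose libraries ran from 1.21 in library 3 to 1.98 in library 4, and their part in the relation was not tested.

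In muscle, 10 of 10 pairs had an r above 0 under both scalings. These pairs share 5 genes and the scaling of each library, and the share over other gene pairs was not computed. Without animal 2, r of Sod1 with Hmox1 was -0.007 with TMM factors. With TMM factors and all animals, r ran from 0.17 for Sod1 with Hmox1 to 0.79 for Cat with Nfe2l2. After adjustment 0 of 10 pairs passed by r (permutation test, 6 at an unadjusted p below 0.05). By rank, Cat with Sod1 and Cat with Nfe2l2 passed, each with rho = 0.83 (permutation test, adjusted p = 0.0409 for both). For Cat with Sod1, r was 0.47 without animals 3 and 4, the farthest from the median of Sod1. For Cat with Nfe2l2, r was 0.59 without animals 2 and 8, the farthest from the median of Cat. Scaled by library totals, 8 muscle pairs passed by r, and 2 by rank (permutation test, adjusted p = 0.0140 for Cat with Sod1 and 0.0349 for Cat with Nfe2l2). Without the 2 animals farthest from the median of a gene of the pair, r of these 8 pairs was 0.21 to 0.70. Without animal 2, 0 pairs passed by r (permutation test, 2 at an unadjusted p below 0.05). The likeness of Cat and Hmox1 rested on animals 2 and 8: r was 0.75 (permutation test, p = 0.0185, adjusted p = 0.135) and 0.10 without them. Levels in muscle and adipose tissue of the same animal were not related past the threshold for any of the 5 genes, with r from -0.59 for Nfe2l2 to 0.70 for Sod1 (permutation test, adjusted p from 0.135 to 0.742, 1 of 5 at an unadjusted p below 0.05).

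**Figure D4:**
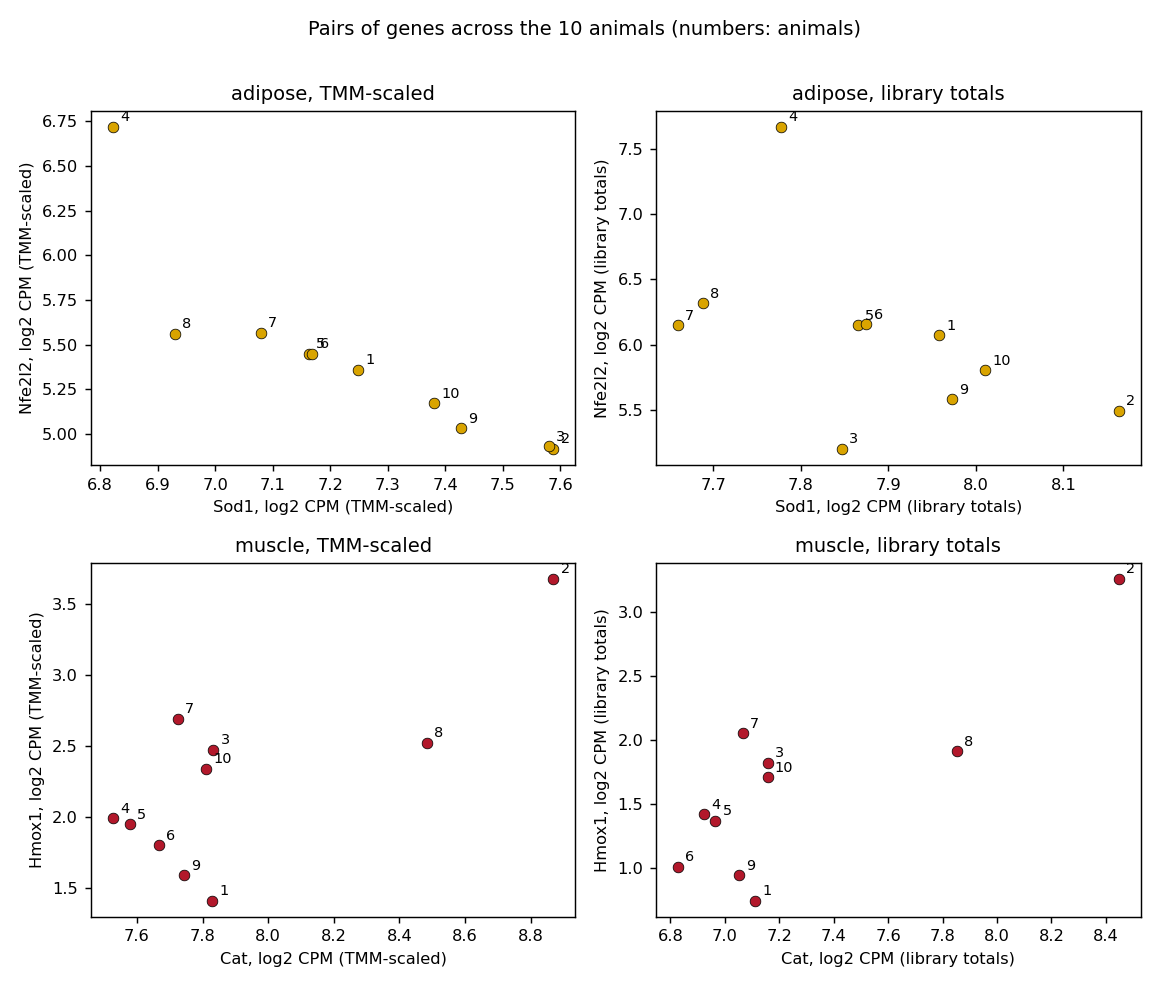
Level of Sod1 (horizontal) against Nfe2l2 (vertical) in adipose tissue, and of Cat against Hmox1 in muscle, in log2 CPM scaled by TMM factors (left) or library totals (right). Points are libraries, numbered by animal. The falling order in the upper left (r = -0.88) was looser with library totals (r = -0.48), and animal 2 stood alone in the lower panels.

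Among 8303 genes whose means reached 5 CPM in each tissue, those that varied most like the members over 20 libraries, after subtraction of the tissue means, are known by identifier only. ENSRNOG00000008459 was most like Sod1 (r = 0.94, with 0.85 in muscle and 0.98 in adipose tissue). ENSRNOG00000024757 was most like Nfe2l2 (r = 0.92), with 0.60 in muscle and 0.99 in adipose tissue. Its medians, 4.71 CPM in muscle and 4.22 CPM in adipose tissue, were below the 5 CPM that its means reached. ENSRNOG00000001647 was the most opposed to Cat (r = -0.88, with -0.90 in muscle and -0.91 in adipose tissue). ENSRNOG00000036827 was the most opposed to Nfe2l2 (r = -0.88), with -0.36 in muscle and -0.97 in adipose tissue. All these points share the TMM factor of their library. Adipose library 4 stood apart in Nfe2l2 and in many other genes, and the correlations with Nfe2l2 were not computed without it.

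The start regions of these genes were searched for the core of the antioxidant response element, the site of Nrf2, in the RefSeq promoter table of build GRCr8. Of the 5 genes, 4 had an entry: Sod1, Sod2, Cat and Nfe2l2. All 250 bases of the Nfe2l2 window, and the last 81 of the Sod1 window, lie inside the extent of the annotated gene, which starts further upstream. In the 250 bases before the listed start, on both strands, the core TGACNNNGC was found in Sod2 and in none of the other three. Of 33469 windows of the same length in the table, 10.1% held it. The GC box GGGCGG was present in Sod1, Sod2 and Nfe2l2 (30.5% of all windows), where the 6 matches of Nfe2l2 partly share letters. The box CCAAT occurred 4 times in Cat and once in Sod1 (34.0% of all windows), and TATAAA in Sod1 (12.9%). The letters CACGTG were in none of these windows (5.59% of all). A match is a description of the letters only.

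The windows of Sod2 and Cat, the genes with the opposite differences between the tissues, and the part of the Sod1 window outside its annotated gene, which leaves out its CCAAT and TATAAA matches, are shown 5′ to 3′, with matches to the searched motifs in capitals. The Sod2 window is chr1:50050169-50050418 on the minus strand, and its second capital run is the antioxidant response element core read on the other strand. The Cat window is chr3:110329527-110329776 on the minus strand, and the Sod1 stretch chr11:42942573-42942741 on the plus strand.
Sod2: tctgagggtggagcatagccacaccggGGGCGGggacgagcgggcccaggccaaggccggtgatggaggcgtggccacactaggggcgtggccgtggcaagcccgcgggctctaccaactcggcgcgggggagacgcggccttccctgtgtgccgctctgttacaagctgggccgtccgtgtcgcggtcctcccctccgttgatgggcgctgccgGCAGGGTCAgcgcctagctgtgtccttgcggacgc
Cat: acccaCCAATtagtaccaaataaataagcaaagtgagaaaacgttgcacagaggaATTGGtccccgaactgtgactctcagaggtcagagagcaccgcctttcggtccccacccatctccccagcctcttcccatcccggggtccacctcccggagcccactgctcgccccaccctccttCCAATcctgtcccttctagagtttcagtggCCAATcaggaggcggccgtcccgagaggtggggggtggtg
Sod1: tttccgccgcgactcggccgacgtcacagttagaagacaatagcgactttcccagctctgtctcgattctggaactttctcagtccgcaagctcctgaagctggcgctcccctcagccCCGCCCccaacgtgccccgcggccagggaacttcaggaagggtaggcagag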

How the data were processed

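Poly(A) RNA of 10 muscle and 10 adipose samples was sequenced, with 300 ng of RNA per library, per the labels' protocols. The submitters' processing notes name featureCounts, STAR, bcl2fastq and build rn6. Strand setting and annotation were "not given in the sources used here". The authors deposited expected counts per gene, not normalised: values of Sod1, Sod2, Cat and Nfe2l2 were whole (within 0.005) in 0 of 20 libraries and of Hmox1 in 6, so reads shared with near-identical or overlapping genes may be split.

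Counts were rounded and the whole table was fitted in R 4.3.3 with edgeR 4.0.16 (filterByExpr, TMM, robust quasi-likelihood test without animal block, Benjamini-Hochberg adjustment), tested on simulated counts. The simulation changed 200 of 13580 genes, far fewer than differ between these tissues, so it does not bear on the choice of scaling. SEs are the fold change over the root of F, and intervals use a t distribution with 18 degrees of freedom (17 without a library). Log2 CPM used a prior count of 2, ratios an offset of 0.5 counts. Alternatives were other scalings and filters, limma 3.58.1 (voom), DESeq2 1.42.0, an animal block and left-out libraries; unrounded counts, leaving out adipose library 4 or animal 4, correlations by library totals without animal 2, and SDs without muscle library 2 or adipose library 4 were added after seeing the data.

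The text names the 5 members, whose names come from the rule that chose them, and the identifiers with the 2 highest and 2 lowest correlations with a member. Lists of other antioxidant genes, Nrf2 regulators and targets, heme breakdown and cell type markers could not be run, since 0 identifiers matched a symbol. Members and lists were chosen with earlier results of these data known. Both tissues came from the same 10 rats, per the design text, numbered by the titles. Over 8303 genes the deviations of same-numbered libraries had correlations of -0.22 to 0.42 (median 0.12). The median for libraries of different numbers was -0.03. Of 10 muscle libraries 2, and of 10 adipose libraries 2, were closest to the library of their own number, so the levels show the pairing only weakly. Counts are reads without molecular identifiers.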

Additional observations from a re-analysis of the deposited data

Results flagged for a closer look

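For the 5 genes and their 10 ratios in each tissue, 30 groups of 10 libraries, the gap of the highest and of the lowest library to its neighbour was set against the range of the group by Dixon's criterion at 95%, which about 1 group in 20 exceeds by chance. It was exceeded in 4 cases, all in adipose library 4. This library was highest in Nfe2l2, at 6.72 log2 CPM next to 5.57 in the nearest library, and lowest in Cat, at 7.86 next to 8.54. Its log2 ratio was the highest for Nfe2l2/Sod1, at -0.10, and for Nfe2l2/Cat, at -1.14. Both ratios contain Nfe2l2 and the latter also Cat, so the 4 cases do not count as separate ones. The 30 groups are not independent either, because each ratio is built from the same genes. The same library held 484 genes at least 2-fold above each other adipose library, so its place was not particular to these genes.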

How the results depend on the processing

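Over 23 alternatives each, Sod2 (log2 fold changes from 1.81 to 3.20), Cat (-2.07 to -0.73) and Hmox1 (-2.12 to -0.78) kept their direction and their call. Sod1 changed sign with upper-quartile factors (-0.11) and library totals (-1.20). Nfe2l2 changed sign with upper-quartile factors (-0.16), library totals (-1.34), and without adipose libraries 1, 3 and 5 (-0.0075) or muscle library 2 (-0.0049). It passed the threshold without adipose library 4 (0.25). With each animal left out in turn, Nfe2l2 ran from -0.072 to 0.29, where it passed without animal 4 (edgeR adjusted p = 0.0224), and Sod1 from 0.05 to 0.14. The balance of called genes depended on the scaling, with 47.1% of 11011 higher in muscle by TMM factors and 14.2% of 11932 by library totals. With the animal as a replicate block, the log2 fold changes were 0.09 for Sod1, 3.15 for Sod2, -0.84 for Cat, -0.97 for Hmox1 and 0.12 for Nfe2l2, 10990 genes were called, and no call on the 5 genes changed.

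Ratios are paired by animal; without that replicate block, permuting tissues over libraries changed no call. The 4 ratios with Sod2 passed in all 13 alternatives, where the run without animal 2 is counted on its own and again among the animals left out in turn. Leaving out animals 1, 3 and 5 leaves fewer samples and raises the smallest p that the sign-flip test can give. Cat/Sod1 (-0.88), Hmox1/Sod1 (-0.85), Nfe2l2/Cat (0.80) and Nfe2l2/Hmox1 (0.77) then missed the threshold. Hmox1/Cat (0.031) and Nfe2l2/Sod1 (-0.077) changed sign. Nfe2l2/Sod1 was -0.10 without animal 2 and -0.10 to 0.22 over the animals left out in turn. The number of correlations past the threshold was 1 in the main analysis, 8 with library totals, 0 with library totals and without animal 2 (permutation test, 3 at an unadjusted p below 0.05, the cause was not tested), and 3 by Spearman rho. Depth limits Hmox1 most, with as few as 27 counts in a muscle library.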
